A study of Rattus norvegicus albus with 14 samples.

Results

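The 30 genes described here make, sense, move and store cholesterol. They were chosen by name, as the rows of the deposited count tables that carry a listed gene symbol, and each matched 1 gene ID of the 32545 in the tables. Grouped by role, they comprised 7 enzymes of the mevalonate and isoprenoid steps, 11 enzymes of the squalene and sterol steps, 6 genes of SREBP sensing and sterol transport, and 6 genes of LXR signalling, efflux and storage. All 30 passed the filter on low counts and were tested among 15655 genes.

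Cells make cholesterol from acetyl-CoA through mevalonate, squalene and lanosterol, in a chain of enzymes whose genes are switched on together by the transcription factors SREBP-1 and SREBP-2. Both factors are held in the endoplasmic reticulum by the escort protein SCAP and its retention partners INSIG1 and INSIG2 when sterols are plentiful, and travel with SCAP to the Golgi for cleavage when sterols are scarce. The liver X receptors (LXR) work in the opposite sense: oxysterols activate them, and they switch on the cholesterol exporters ABCA1 and ABCG1, the ubiquitin ligase MYLIP, which removes lipoprotein receptors from the cell surface, and the gene for SREBP-1. PPARγ, the receptor that rosiglitazone activates, is known for raising LXR and ABCA1 in macrophages.

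The RNA came from cultured neonatal rat ventricular myocytes, the contractile cells of the heart's lower chambers, isolated from Sprague-Dawley rats at the age of 1 day. Cells were pooled, preplated to remove fibroblasts, plated on fibronectin in serum and then kept in serum-free medium with albumin, insulin, transferrin and selenium. The groups were 1% DMSO for 0.5 h (1 library) and 10 µmol/L rosiglitazone in 1% DMSO for 0.5, 24 and 48 h (2 libraries each), so every group carried the vehicle. No DMSO library of 24 or 48 h was analysed here, and in any comparison of later with earlier libraries the effect of the drug and that of longer culture cannot be told apart. Each library was deposited as 2 splits, whose counts agree within sampling noise and were added up. Whether the 2 libraries of a group are separate cultures is not stated in the labels, and all p-values refer to the variation among these 7 libraries, part of which may be technical.

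Libraries held 10886559 to 28074620 counts, and replicate 2 of 48 h was the shallowest. Levels are given in CPM, read counts scaled to the library size, and differences are on the log2 scale. The markers of heart muscle were not stable over the course. The summed level of 11 cardiomyocyte markers was 7329 CPM in the DMSO library, 12552 and 12316 CPM with rosiglitazone at 0.5 h, 11896 and 3105 CPM at 24 h, and 377 and 1607 CPM at 48 h. Between 48 h and 0.5 h, 10 of these 11 markers fell in edgeR's quasi-likelihood test. The 9 matched fibroblast markers summed to 50097 to 51637 CPM in the half-hour libraries and 17357 to 35053 CPM in the later ones, with Thy1 at 0 counts in at least 1 library; 1 of the 9 rose and 0 fell from 0.5 to 48 h, and 3 had positive fold changes. The 8 smooth muscle and pericyte markers summed to 3731 to 4414 CPM in the half-hour libraries and 298 to 1421 CPM in the later ones, with 3 of 8 falling to 48 h, and the 7 matched endothelial markers to 162 to 199.9 CPM and 43.2 to 99.9 CPM, with 4 of 7 falling. Macrophage markers summed to 948 CPM in the DMSO library and 168 to 452 CPM in the others, with Cd163 and Adgre1 at 0 counts in at least 1 library. Of these 10 markers, 3 fell and 0 rose from 0.5 to 48 h, and 4 had positive fold changes. In that comparison 1.97% of all genes rose and 4.62% fell. In every library the summed fibroblast markers were above the summed cardiomyocyte markers, though sums of different genes do not measure shares of cells. In bulk RNA, fewer cells of a type and less RNA per cell cannot be told apart. The part of these shifts in the results below was not tested.

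At 24 h the cholesterol genes split by role and by library. The synthesis enzymes were high in 1 of the 2 libraries of 24 h and low in the other. In both, 5 of the 6 sensing and transport genes stood above all 3 half-hour libraries. Of all genes, 35.6% did so in replicate 1 of 24 h and 35.0% in replicate 2. At 48 h most synthesis enzymes and the efflux genes were below their half-hour levels, and the same 5 sensing genes were above theirs. In replicates 1 and 2 of 48 h, 39.1% and 42.3% of all genes lay below all half-hour libraries. Above them lay 36.2% and 34.9%. Of all these differences, 1 passed the threshold of an adjusted p of 0.05 in edgeR's quasi-likelihood test: Scap, higher at 48 h than at 0.5 h. There 1.97% of all genes were called higher and 4.62% lower.

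**Figure D1:**
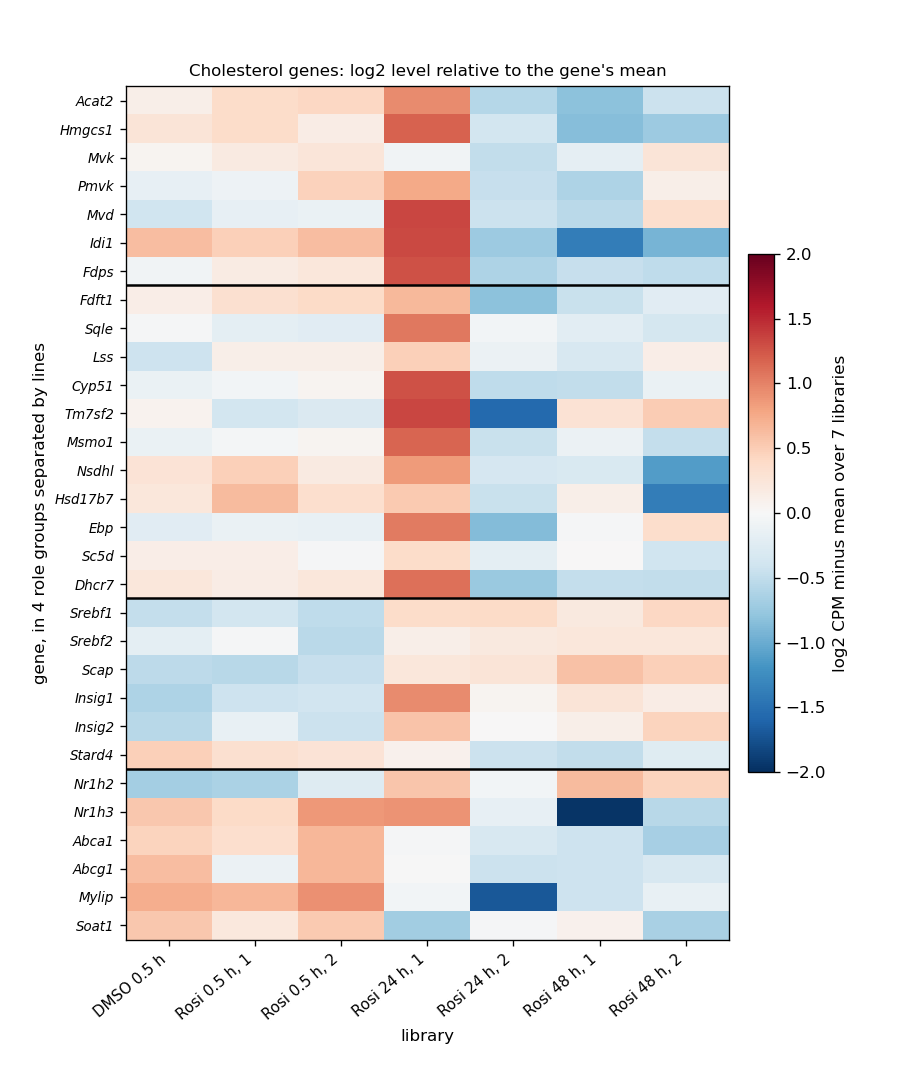
Level of each of the 30 genes (rows, in 4 role groups separated by lines) in each of the 7 libraries (columns), as log2 CPM minus the gene's mean over the libraries; red is higher and blue is lower. All enzymes but Mvk are red in replicate 1 of 24 h and all 18 are blue in replicate 2 of 24 h, while Srebf1, Srebf2 and Scap have nearly the same colour in both.

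The first 7 enzymes lead from acetyl-CoA to farnesyl diphosphate. Hmgcs1, which condenses acetyl units to HMG-CoA, was at 318 CPM with DMSO, 346 and 297 CPM with rosiglitazone at 0.5 h, 606 and 207 CPM at 24 h, and 149 and 161 CPM at 48 h. The half-hour libraries lay together, the 2 libraries of 24 h stood on either side of them, and both libraries of 48 h lay below every other library. Its mean was 322 ± 34.8 CPM at 0.5 h and 155 ± 8.74 CPM at 48 h (SD, n = 2 each), a log2 fold change of -1.06 ± 0.47 (SE) that did not pass (edgeR, adjusted p = 0.23).

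Idi1, the isomerase that makes dimethylallyl diphosphate, had the widest range among the mevalonate enzymes, 6.49-fold from its lowest to its highest library. It was at 169 CPM with DMSO, 152 and 169.6 CPM at 0.5 h of rosiglitazone, 275 and 66.5 CPM at 24 h, and 42.3 and 57.7 CPM at 48 h. Both libraries of 48 h were lower than all others, and replicate 2 of 24 h was next. The log2 fold change from 0.5 to 48 h was -1.69 ± 0.59 (edgeR, adjusted p = 0.14), and DESeq2 on the same counts called it lower (adjusted p = 0.024).

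Fdps, the farnesyl diphosphate synthase, was at 209 CPM with DMSO, 246 and 256 CPM at 0.5 h, 529 and 144 CPM at 24 h, and 159 and 153 CPM at 48 h. Replicate 1 of 24 h was 3.68 times replicate 2, whereas the libraries of 0.5 h and of 48 h agreed closely. Acat2, the cytosolic thiolase at the start of the chain, was also highest in replicate 1 of 24 h, with 28.4 CPM for DMSO, 33.9 and 35.0 CPM at 0.5 h, 50.6 and 17.7 CPM at 24 h, and 14.9 and 19.4 CPM at 48 h. Mvd, the mevalonate diphosphate decarboxylase, reached 49.0 CPM in replicate 1 of 24 h against 13.3 to 24.1 CPM in all other libraries.

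Pmvk and Mvk, the kinases of the pathway, varied less. Pmvk was at 57.7 and 24.8 CPM at 24 h, against 22.3 to 46.8 CPM elsewhere, and its libraries of 0.5 and 48 h overlapped. Mvk stayed between 11 and 18.4 CPM in all 7 libraries, and its 24 h libraries, 14.7 and 11 CPM, lay below those of rosiglitazone at 0.5 h, 17.5 and 18.2 CPM. Mvk was the mevalonate enzyme that was not highest in replicate 1 of 24 h.

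The squalene and sterol steps carried the same pattern. Cyp51, the lanosterol demethylase, was at 269 CPM with DMSO, 284 and 304 CPM at 0.5 h, 708 and 206 CPM at 24 h, and 209 and 268 CPM at 48 h. Replicate 1 of 24 h was 3.44 times replicate 2, and the other 6 libraries spanned 206 to 304 CPM. Sqle, the squalene epoxidase and a rate-limiting step, was at 116 CPM with DMSO, 102 and 101 CPM at 0.5 h, 244 and 113 CPM at 24 h, and 101 and 92.2 CPM at 48 h. Its 2 libraries of 24 h both exceeded the 2 rosiglitazone libraries of 0.5 h, by a log2 fold change of 0.82 ± 0.37 (edgeR, adjusted p = 0.34), but replicate 2 did not exceed the DMSO library.

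Msmo1, a sterol C4 oxidase, was at 262 and 85.5 CPM at 24 h, against 107 to 121 CPM at 0.5 h with or without rosiglitazone. Dhcr7, which makes cholesterol from its immediate precursor, was at 54.8 and 15.2 CPM at 24 h and 18.4 and 18 CPM at 48 h, against 28.4 and 29.7 CPM with rosiglitazone at 0.5 h. Ebp, the sterol isomerase, was at 29.8 and 7.88 CPM at 24 h and between 12.4 and 18.3 CPM elsewhere. In each of these genes the half-hour libraries lay close together and the 24 h libraries stood apart on either side.

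Tm7sf2, a sterol reductase, showed the widest gap between the libraries of 24 h, 34.3 and 4.56 CPM, a ratio of 7.52. Its half-hour libraries were at 14.2, 10.5 and 11 CPM and its 48 h libraries at 16.5 and 19.1 CPM, so it was 1 of 2 enzymes above all half-hour libraries in both libraries of 48 h, with Ebp. Fdft1, the squalene synthase, was at 139 and 50.4 CPM at 24 h and 65.0 and 75.6 CPM at 48 h, against 97.7 to 117 CPM in the half-hour libraries. Nsdhl, a sterol dehydrogenase, was likewise highest in replicate 1 of 24 h but lowest in replicate 2 of 48 h, with 61.6 and 26.9 CPM at 24 h and 27.5 and 15.6 CPM at 48 h, against 38.7 to 47.2 CPM before.

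The remaining sterol enzymes varied least between the 24 h libraries. Lss, which closes squalene epoxide into lanosterol, was at 30.2 CPM with DMSO and 43.7 and 43.9 CPM with rosiglitazone at 0.5 h, then 55.7 and 37.2 CPM at 24 h and 32.2 and 44.4 CPM at 48 h. Sc5d, the sterol C5 desaturase, spanned 64.7 to 109.8 CPM over all libraries. Hsd17b7, a sterol ketone reductase, was at 4.46 CPM in replicate 2 of 48 h from 48 counts, the lowest of its 7 libraries, against 8.78 to 18.7 CPM in the others.

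Taking the 18 enzymes together, 16 were above all 3 half-hour libraries in replicate 1 of 24 h and 16 were below all 3 in replicate 2 of 24 h. Of all 15655 genes tested, 35.6% were above the half-hour libraries in replicate 1 and 40.9% were below them in replicate 2. In replicate 1 the exceptions were Mvk, which was below, and Hsd17b7, which lay within the half-hour range. In replicate 2 they were Sqle and Lss, which lay within it. Each library of 48 h had 12 of the 18 below all half-hour libraries, against 39.1% of all genes in replicate 1 and 42.3% in replicate 2.

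The genes driven by SREBP were also compared as a group of 21, made of the 18 enzymes with Insig1, Srebf2 and Stard4. At 24 h, 20 of the 21 were lower in replicate 2 than in replicate 1, with a median log2 difference of -1.47. Over all genes 56.8% were lower, with a median of -0.19. At 0.5 h the same count was 8 of 21 with a median of 0.04, and at 48 h it was 8 of 21 with a median of 0.22. The libraries of 24 h differed by more than 2-fold in 16 of the 30 genes (36.1% of all genes), those of 0.5 h in 0 of 30 (13.3%) and those of 48 h in 2 of 30 (29.9%). Replicate 1 of 24 h was the highest of the 7 libraries for 17 of the 21 genes, and for 18.3% of all genes. The cardiomyocyte markers differed between the same 2 libraries, 11896 CPM in replicate 1 and 3105 CPM in replicate 2, as did macrophage markers, 452 and 168 CPM. The part of these cell type differences in the enzymes' levels was not tested.

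**Figure D2:**
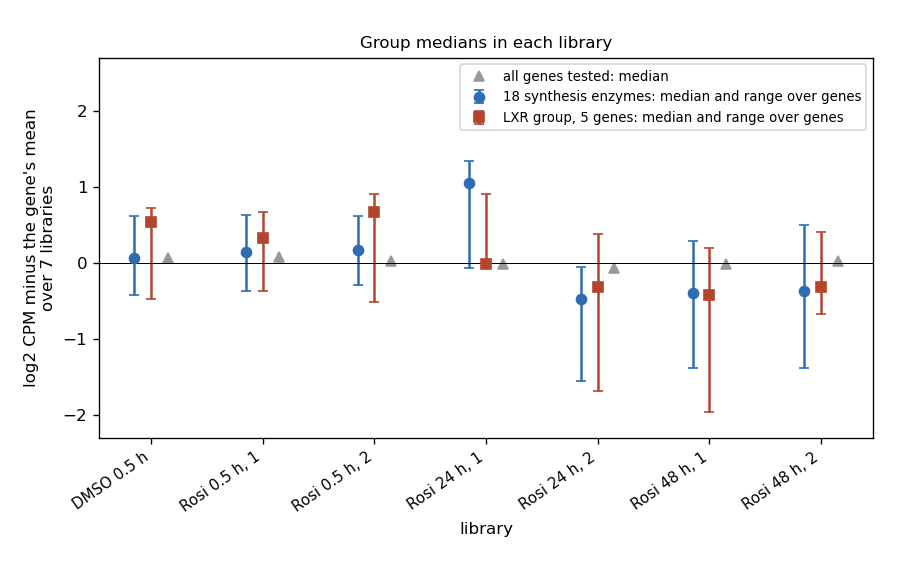
Median log2 level of the 18 synthesis enzymes (blue circles), of the LXR group of 5 genes (red squares) and of all genes tested (grey triangles) in each library, relative to each gene's mean over the 7 libraries; bars span the lowest to the highest gene. The enzymes' median was 1.05 in replicate 1 of 24 h and -0.47 in replicate 2. The LXR group's median was above 0 in the 3 half-hour libraries and near 0 in replicate 1 of 24 h (-0.01). It was -0.32 in replicate 2 of 24 h, and -0.42 and -0.32 in replicates 1 and 2 of 48 h.

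Among the sensing and transport genes, Scap, Srebf1 and Srebf2 did not share this split. Insig1, Insig2 and Stard4 were higher in replicate 1 of 24 h, at 1.85, 1.48 and 1.43 times replicate 2. Scap encodes the escort protein that carries SREBP to the Golgi. It was at 68.3 CPM with DMSO, 66.7 and 70.9 CPM with rosiglitazone at 0.5 h, 113 and 117 CPM at 24 h, and 146 and 136 CPM at 48 h. The 3 half-hour libraries lay close together, both libraries of 24 h lay above them and both libraries of 48 h lay above those.

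Scap averaged 68.8 ± 2.93 CPM at 0.5 h, 115 ± 2.46 CPM at 24 h and 141 ± 7.06 CPM at 48 h (SD, n = 2 each). From 0.5 to 48 h it rose 2.05-fold, a log2 fold change of 1.03 ± 0.24 (edgeR, adjusted p = 0.0481). Scap was the 1 gene of the 30 that passed in this comparison, in which 1.97% of all genes were called higher and 4.62% lower. The call lay at the threshold: it was lost with DESeq2's size factors (edgeR, adjusted p = 0.0511), with no filter on low counts (0.0542) and when any 1 library of 0.5 or 48 h was left out (0.13 to 0.41), while the DESeq2 test kept it (adjusted p = 0.0025).

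Srebf1, the gene for SREBP-1 and a target of LXR, was at 38.7 CPM with DMSO, 41.8 and 37.8 CPM at 0.5 h, 69.4 and 70.1 CPM at 24 h, and 62.0 and 71.3 CPM at 48 h. The later libraries did not overlap the half-hour ones and did not differ among themselves beyond their spread. The mean of 24 and 48 h exceeded 0.5 h by a log2 fold change of 0.78 ± 0.23 (edgeR, adjusted p = 0.093), and DESeq2 called it (adjusted p = 0.028). Srebf2, the gene for SREBP-2, was at 100.1 CPM with DMSO, 113 and 79.1 CPM at 0.5 h, 124 and 130.4 CPM at 24 h, and 134 CPM in both libraries of 48 h, with a log2 fold change of 0.48 ± 0.27 from 0.5 to 48 h (edgeR, adjusted p = 0.34).

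Insig1, both a brake on SCAP and a target of SREBP, was at 65.6 CPM with DMSO, 74.5 and 76.8 CPM at 0.5 h, 192 and 104 CPM at 24 h, and 119 and 111 CPM at 48 h. Like the enzymes it was highest in replicate 1 of 24 h, but replicate 2 still lay above every half-hour library. Its log2 fold change from 0.5 to 24 h was 0.97 ± 0.33 (edgeR, adjusted p = 0.23). Insig2, the second retention protein, was at 10.9, 14.4 and 11.9 CPM in the half-hour libraries, 23.8 and 16.1 CPM at 24 h, and 17.4 and 21.6 CPM at 48 h.

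Stard4, a soluble sterol carrier and SREBP target, was the exception of its role group. It was at 20.4 CPM with DMSO, 18.1 and 17.6 CPM at 0.5 h, 15.5 and 10.8 CPM at 24 h, and 10.3 and 12.2 CPM at 48 h. All 4 later libraries lay below all 3 half-hour ones, which held for 19.5% of all genes tested. Of the 30 genes it held for 4: Stard4, Abca1, Mylip and Soat1. Srebf1, Srebf2, Scap, Insig1 and Insig2 lay above all 3 half-hour libraries in all 4 later ones, which held for 14.2% of all genes tested. Of the 18 enzymes, 0 did so.

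**Figure D3:**
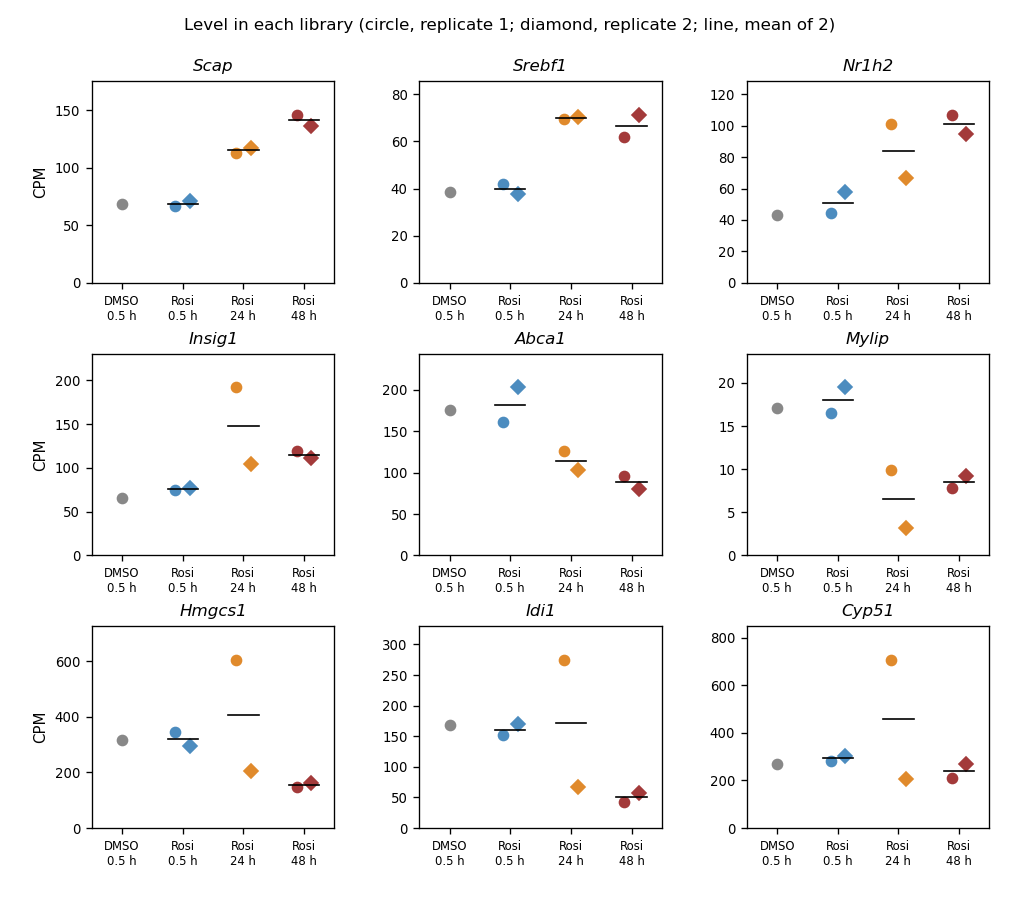
CPM of 9 genes in each library, on linear axes that start at 0 (circles, replicate 1; diamonds, replicate 2; lines, mean of 2 libraries; grey, DMSO; blue, orange and red, rosiglitazone at 0.5, 24 and 48 h). Scap and Srebf1 have close replicates at 24 h, and Hmgcs1, Idi1 and Cyp51 have replicates on either side of the half-hour level.

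The receptors and transporters of the efflux arm followed a different course. Abca1, which loads cholesterol onto apolipoprotein A-I, was at 175 CPM with DMSO, 161 and 203 CPM at 0.5 h, 126 and 103 CPM at 24 h, and 96.1 and 80.2 CPM at 48 h. The half-hour libraries were the highest and the 48 h libraries the lowest, with no overlap between times. Its mean was 182 ± 29.7 CPM at 0.5 h and 88.2 ± 11.2 CPM at 48 h (SD, n = 2 each). The log2 fold change of -1.04 ± 0.27 missed the threshold in edgeR with the main filter (adjusted p = 0.065), and the DESeq2 test called it lower (adjusted p = 0.0052).

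Abcg1, which exports cholesterol to high-density lipoprotein, was at 33.9 CPM with DMSO, 20.4 and 35.1 CPM at 0.5 h, 21.9 and 16.3 CPM at 24 h, and 16.5 and 17.5 CPM at 48 h. With rosiglitazone at 0.5 h, replicate 1 was 0.581 times replicate 2 and lay between the 2 libraries of 24 h. Mylip was at 17.1 CPM with DMSO, 16.5 and 19.5 CPM at 0.5 h, 9.92 and 3.17 CPM at 24 h, and 7.80 and 9.21 CPM at 48 h. All later libraries of Mylip lay below the half-hour ones, with a log2 fold change of -1.46 ± 0.58 from 0.5 to 24 h (edgeR, adjusted p = 0.29).

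The 2 LXR genes went opposite ways. Nr1h2, which encodes the widely expressed LXRβ, was at 43.2 CPM with DMSO, 44.5 and 57.7 CPM at 0.5 h, 101 and 66.6 CPM at 24 h, and 107 and 94.7 CPM at 48 h. Every later library exceeded every half-hour one, and the log2 fold change at 48 h was 0.98 ± 0.31 (edgeR, adjusted p = 0.11; DESeq2, adjusted p = 0.042).

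Nr1h3, which encodes LXRα, had few counts late in the course. It was at 5.30 CPM with DMSO, 4.79 and 6.65 CPM at 0.5 h, 6.82 and 3.24 CPM at 24 h, and 0.878 and 2.32 CPM at 48 h. The 48 h libraries were the 2 lowest, from as few as 24 counts, and the log2 fold change from 0.5 h was -1.86 ± 0.79 (edgeR, adjusted p = 0.21). Soat1, which esterifies cholesterol for storage in droplets, was at 109.9 CPM with DMSO, 87.7 and 109 CPM at 0.5 h, 46.8 and 74.3 CPM at 24 h, and 80.0 and 48.0 CPM at 48 h, so that its later libraries lay below its half-hour ones but overlapped each other.

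For rosiglitazone against DMSO at 0.5 h, 0 of the 30 genes passed in either direction, as did 0% of all genes tested. The unadjusted p was under 0.05 for 0 of the 30 genes, and for 0.109% of all genes higher and 0.498% lower, and DESeq2 called 0 of the 30 (0% of all genes higher and 0.0128% lower). Fold changes were positive for 21 of the 30 genes (51.7% of all genes) and negative for 9 (47.2%), and both rosiglitazone libraries lay above the DMSO library for 14 (30.2%) and below it for 5 (31.8%). The smallest p was that of Lss, with a log2 fold change of 0.54 ± 0.41 (edgeR, adjusted p = 1). Pmvk, Insig2, Acat2, Nr1h2 and Insig1 followed with log2 fold changes of 0.38 ± 0.59, 0.27 ± 0.47, 0.28 ± 0.60, 0.24 ± 0.38 and 0.21 ± 0.40 (edgeR, adjusted p = 1 for each). Abcg1 and Sqle were at -0.29 ± 0.46 and -0.19 ± 0.45. The SREBP group had a median log2 fold change of 0.13 and the LXR group, made of Abca1, Abcg1, Mylip, Nr1h3 and Srebf1, one of 0.05, against 0.01 over all genes. In this comparison the LXR group's 5 genes all overlapped the DMSO library, which was 1 library and has no spread of its own. Without replicate 1 of rosiglitazone at 0.5 h the LXR median was 0.19 and without replicate 2 it was -0.13, so its sign turned. Fold changes here were negative for 10 of 10 macrophage markers (median -1.61), and positive for 11 of 11 cardiomyocyte markers (median 0.74) and 4 of 4 red blood cell markers (median 1.34). Both rosiglitazone libraries stood apart from the DMSO library in each of these markers. None passed the adjusted threshold in edgeR, and 5 macrophage markers were at an unadjusted p under 0.05. The part of these markers in the comparison was not tested.

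From 0.5 to 24 h of rosiglitazone, again 0 of the 30 genes passed, while 0.0511% of all genes were called higher and 0.0447% lower. At an unadjusted p under 0.05, 3 of the 30 were higher (6.55% of all genes) and 2 lower (9.12%), and DESeq2 called 0 of the 30 (2.91% of all genes higher and 5.48% lower). Fold changes were positive for 20 of the 30 genes (48.4% of all genes) and negative for 10 (51.2%), and the libraries of 24 h lay wholly above those of 0.5 h for 7 (21.2%) and wholly below for 5 (28.9%). The 3 were Scap, with a log2 fold change of 0.74 ± 0.24 (edgeR, adjusted p = 0.2), Srebf1, with 0.81 ± 0.26 (edgeR, adjusted p = 0.21), and Insig1. The 2 were Mylip and Abca1, whose log2 fold change was -0.67 ± 0.27 (edgeR, adjusted p = 0.29). Nr1h2 was at 0.71 ± 0.31 and Soat1 at -0.70 ± 0.36. The SREBP group had 16 of 21 positive fold changes and a median of 0.27, and the LXR group 4 of 5 negative ones and a median of -0.54, with -0.03 over all genes.

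That SREBP median was set by which library of 24 h was counted. Without replicate 1 of 24 h it was -0.68 and without replicate 2 it was 0.76, so its sign turned. The LXR median was negative either way and ranged from -0.83 to -0.10 when single libraries were left out. Without replicate 1 of 24 h, 3 of the 30 genes were called in edgeR, all lower: Idi1, Fdft1 and Mylip. In that fit 2.03% of all genes were called higher and 4.49% lower. Without replicate 2, 4 were called, all higher: Insig1, Cyp51, Sqle and Tm7sf2, where 1.12% of all genes were higher and 2.11% lower. Leaving out either library also takes that group's spread out of the fit, and the remaining library is then assumed to vary like the other groups, so these calls add no support to either direction.

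From 24 to 48 h, a comparison that shares the 24 h libraries with the one before it, 0 of the 30 genes passed, as did 0% of all genes. At an unadjusted p under 0.05, 0 of the 30 were higher (2.80% of all genes) and 3 were lower (5.34%), and DESeq2 called 0 (0.969% of all genes higher and 2.51% lower). Fold changes were positive for 6 of the 30 genes (46.2% of all genes) and negative for 24 (50.8%), and the libraries of 48 h lay wholly above those of 24 h for 2 (14.5%) and wholly below for 5 (14.6%). The 3 were Idi1, with a log2 fold change of -1.77 ± 0.59 (edgeR, adjusted p = 0.45), Hmgcs1, with -1.39 ± 0.47 (edgeR, adjusted p = 0.47), and Sqle, with -0.88 ± 0.37 (edgeR, adjusted p = 0.6). The SREBP group was negative in 19 of 21 genes with a median of -0.56. Without replicate 1 of 24 h that median was 0.13, and without replicate 2 it was -1.0. The LXR group's median was -0.17.

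Over the whole course, from 0.5 to 48 h, the SREBP group had 16 of 21 negative fold changes and a median of -0.30, and the LXR group had 4 of 5 and a median of -1.04, against 52.8% negative and a median of -0.07 over all genes. The libraries of 48 h lay wholly below those of 0.5 h for 11 of the 21 and 4 of the 5, as they did for 34.4% of all genes. They lay wholly above for 4 of the 21 and 1 of the 5 (28.3% of all genes). Srebf1 was the 1 gene of the LXR group that was higher. Of all 30 genes, 9 had positive fold changes (46.1% of all genes tested), and at an unadjusted p under 0.05, 3 were higher (9.65%) and 3 lower (13.3%). Both medians kept their sign whichever library was left out, between -0.50 and -0.25 for the SREBP group and between -1.22 and -0.86 for the LXR group.

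**Figure D4:**
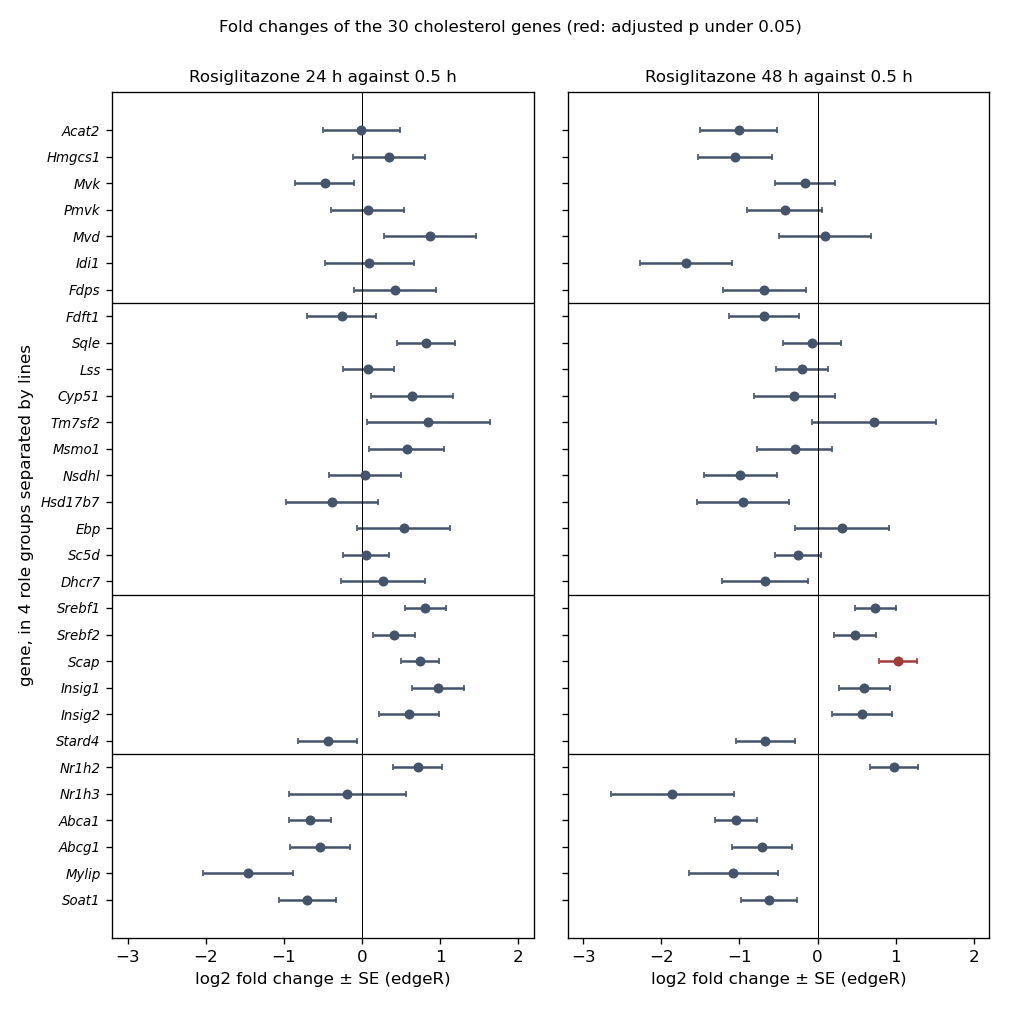
Log2 fold change (edgeR) for each of the 30 genes at 24 h (left) and 48 h (right) of rosiglitazone against 0.5 h. Bars are standard errors derived from the F statistic of the test. The genes are in 4 role groups separated by lines, and red marks an adjusted p under 0.05. Scap at 48 h is the 1 red point, and Nr1h2 is the 1 gene to the right of 0 among the LXR, efflux and storage genes in both panels.

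How many of the 30 genes were called at 48 h differed between settings. With the 4 groups in 1 fit and the main filter, the call was Scap alone. With only the 4 libraries of 0.5 and 48 h, edgeR called 6 genes: Scap and Nr1h2 higher (7.62% of all genes in that fit), and Idi1, Hmgcs1, Abca1 and Acat2 lower (12.0%). In the DESeq2 test on all libraries 4 were called, Scap and Nr1h2 higher (6.06% of all genes) and Idi1 and Abca1 lower (12.0%). The filter on low counts mattered too: in the 4-group fit with genes of a mean of at least 5 CPM, Scap and Abca1 (edgeR, adjusted p = 0.0499) were called, where 3.19% of all genes were higher and 7.14% lower. With no filter Abca1 (edgeR, adjusted p = 0.0487) was called and Scap was not, where 1.99% were higher and 4.85% lower.

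The mean of 24 and 48 h was compared with 0.5 h as a further contrast that uses the same libraries, in which 1.92% of all genes were called higher and 5.33% lower. Of the 30 genes, 0 passed in edgeR, with Scap nearest (log2 fold change 0.89 ± 0.21, adjusted p = 0.0501) and Abca1 next (-0.86 ± 0.23, adjusted p = 0.065). At an unadjusted p under 0.05, 4 were higher (9.49% of all genes) and 2 lower (15.0%), namely Scap, Srebf1, Nr1h2 and Insig1, and Abca1 and Mylip. DESeq2 called Scap, Srebf1 and Nr1h2 higher (6.34% of all genes) and Abca1 lower (11.1%). Fold changes were positive for 12 of the 30 genes (46.1% of all genes) and negative for 18 (53.8%). All 4 later libraries lay above both rosiglitazone libraries of 0.5 h for 6 genes (16.1%) and below both for 4 (22.0%).

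The authors' deposited table gave more calls. In the authors' deposited table for 24 h against 0.5 h, 7 of the 30 genes were higher and 4 lower at an adjusted p under 0.05, where 17.8% and 21.2% of all genes were. Those higher in the authors' deposited table were Insig1, Srebf1, Sqle, Scap, Nr1h2, Insig2 and Srebf2, with log2 fold changes from 0.42 to 0.95. Those lower in the authors' deposited table were Mylip, Soat1, Abca1 and Mvk, from -1.33 to -0.46. With each split entered as its own sample, edgeR called 11 of the 30 genes in this comparison, and all 11 were the ones called in the authors' deposited table. In that fit 18.7% of all genes were called higher and 20.2% lower. For 48 h against 24 h, edgeR on the splits called 8 of the 30, of which 7 were also called by the authors. How many of all genes that fit called is given in the last section, and 8 is to be read beside it. For 0.5 h against DMSO edgeR on the splits called 0 of the 30, where the authors' deposited table called 2. Splits of 1 library share its RNA, and how they were entered for the authors' deposited table is not given in the sources used here.

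For 48 h against 24 h, the authors' deposited table called Scap higher (6.99% of all genes) and 6 of the 30 lower (9.46%). The 6 in the authors' deposited table were Idi1, Nr1h3, Hmgcs1, Nsdhl, Sqle and Abca1, with log2 fold changes from -1.45 to -0.37. For rosiglitazone against DMSO at 0.5 h, the authors' deposited table called Lss and Fdps higher, at 0.50 and 0.26 (5.07% of all genes), and 0 of the 30 lower (5.96%).

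Around these 30 genes, 65 further pathway genes were listed in 6 groups, and 62 were tested. None passed in edgeR at 0.5 h against DMSO, at 24 h against 0.5 h or at 48 h against 24 h. At an unadjusted p under 0.05, 0 of the 62 were higher or lower at 0.5 h against DMSO. At 24 h against 0.5 h, 15 were higher (6.55% of all genes) and 2 lower (9.12%), and at 48 h against 24 h, 4 were higher (2.80%) and 3 lower (5.34%). DESeq2 called 0, 4 and 1 of the 62 in these comparisons, all of them higher (0%, 2.91% and 0.969% of all genes). From 0.5 to 48 h at an unadjusted p under 0.05, 17 of the 62 were higher (9.65% of all genes) and 1 lower (13.3%). DESeq2 called 9 higher (6.06%) and 1 lower (12.0%) there. For the mean of 24 and 48 h against 0.5 h, edgeR called Lrp8 and Lpcat3 higher (1.92%) and 0 lower (5.33%). In edgeR, 3 of the 62 rose from 0.5 to 48 h (1.97% of all genes) and 0 fell (4.62%): Lrp8, Lpcat3 and Cyp7b1. All 3 calls lay at the threshold and were lost in edgeR with DESeq2's size factors, at adjusted p = 0.0501 for Lrp8 and Lpcat3 and 0.0506 for Cyp7b1, and each was kept by the DESeq2 test. Those of Lrp8 and Lpcat3 were also lost when any 1 library of 0.5 or 48 h was left out (edgeR, adjusted p from 0.1 to 0.4), and that of Lrp8 without the DMSO library (0.057).

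Among the 6 lipoprotein receptors, 1 rose from 0.5 to 48 h. Lrp8, which binds reelin and lipoproteins, was at 32.5 CPM with DMSO, 36.2 and 20.7 CPM at 0.5 h, 104 and 203 CPM at 24 h, and 119.9 and 88.5 CPM at 48 h. Unlike the synthesis enzymes it was higher in replicate 2 of 24 h than in replicate 1, and all later libraries exceeded all half-hour ones. It rose by a log2 fold change of 1.87 ± 0.43 to 48 h (edgeR, adjusted p = 0.0476).

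Among 10 tested LXR targets and partners, Lpcat3, the enzyme that puts polyunsaturated chains into phospholipids, rose by 1.08 ± 0.25 (edgeR, adjusted p = 0.0491) and 0 fell. It was at 62.0 CPM with DMSO, 57.0 and 60.0 CPM at 0.5 h, 121 and 102 CPM at 24 h, and 132 and 116 CPM at 48 h. This LXR target thus stood above its half-hour levels in the same libraries in which Abca1 and Mylip stood below theirs. The 10 genes had a median log2 fold change of 0.48 from 0.5 to 24 h and 0.62 from 0.5 to 48 h. Over all genes these medians were -0.03 and -0.07. Fold changes were positive for 9 and 7 of the 10 (48.4% and 46.1% of all genes). To 48 h, 3 were higher (9.65%) and 0 lower (13.3%) at an unadjusted p under 0.05 in edgeR.

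Of 12 tested oxysterol and isoprenoid enzymes, Cyp7b1, an oxysterol hydroxylase, rose and 0 fell. It was at 16.8 CPM with DMSO, 13.0 and 14.4 CPM at 0.5 h, 18.1 and 34.3 CPM at 24 h, and 222 and 39.9 CPM at 48 h. Its increase of 3.25 ± 0.76 (edgeR, adjusted p = 0.0497) rested on 2 libraries of 48 h that lay far apart, and the higher of them was the library with the lowest summed cardiomyocyte markers. Without that library its log2 fold change was 1.5 (edgeR, adjusted p = 0.21). The call of Cyp7b1 was also lost with no filter, with a mean of at least 5 CPM, with only the groups compared and without any 1 of the DMSO, 0.5 h or 24 h libraries (edgeR, adjusted p from 0.0515 to 0.33).

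Of 11 genes of lysosomal and non-vesicular sterol transport, 0 passed in edgeR in any comparison. From 0.5 to 48 h their median log2 fold change was 0.78, against -0.07 over all genes, with 6 higher (9.65% of all genes) and 0 lower (13.3%) at an unadjusted p under 0.05. Npc2, which hands cholesterol out of the lysosome, was at 223 CPM with DMSO, 176 and 223 CPM at 0.5 h, 554 and 351 CPM at 24 h, and 429.7 and 496 CPM at 48 h (log2 fold change at 48 h 1.21 ± 0.32, edgeR, adjusted p = 0.068). Gramd1a, which carries cholesterol from the plasma membrane, was at 1.06 ± 0.31 (edgeR, adjusted p = 0.093). The DESeq2 test called 4 of the 11 higher from 0.5 to 48 h (6.06% of all genes) and 0 lower (12.0%). They were Npc2 (DESeq2, adjusted p = 0.0054), Gramd1a (DESeq2, adjusted p = 0.028), Osbp and Nceh1. From 0.5 to 24 h, Npc2 was the 1 gene of the 11 called (DESeq2, adjusted p = 0.014), where 2.91% of all genes were higher.

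Of 11 further genes of sterol sensing and turnover, 0 passed in edgeR in any comparison. At an unadjusted p under 0.05, 4 were higher at 48 h than at 0.5 h (9.65% of all genes) and 0 lower (13.3%). The DESeq2 test called 2 of the 11 higher at 48 h than at 0.5 h (6.06% of all genes) and 0 lower (12.0%). Of 12 tested further SREBP targets, 0 passed. Acss2, which makes acetyl-CoA from acetate, was highest in replicate 1 of 24 h, as most of the enzymes were, with 39.9 CPM for DMSO, 37.7 and 39.6 CPM at 0.5 h, 66.7 and 20.5 CPM at 24 h, and 7.39 and 15.4 CPM at 48 h. Its log2 fold change from 0.5 to 48 h was -1.77 ± 0.60 (edgeR, adjusted p = 0.13; DESeq2, adjusted p = 0.027). The median of these 12 targets was 0.21 from 0.5 to 24 h and 0.02 from 0.5 to 48 h.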

How the data were processed

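Per the labels' protocols, total RNA was made into libraries with a directional kit. HTSeq, DESeq2, cutadapt 1.11 and FastQC 0.11.5 are listed in the submitters' processing notes, with the builds Rnor_6.0 and hg19; the aligner is not given in the sources used here. The deposited values used were whole-number read counts of each gene in 14 splits of 7 libraries, not normalized. Per the file headers, the same tables hold the authors' log2 fold changes and p-values, raw and adjusted, for 3 comparisons. All gene IDs are rat Ensembl IDs.

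The 2 splits of a library were summed (chi-square per degree of freedom 0.9635 to 1.015). Counts were tested with edgeR 4.0.16 in R 4.3.3 (quasi-likelihood, robust, TMM scaling, filterByExpr), with 4 groups in 1 fit, 3 residual degrees of freedom and 5 comparisons. P-values were adjusted over all 15655 genes tested by the Benjamini-Hochberg method. The test returns no standard error, so each edgeR SE was derived as the absolute log2 fold change divided by the square root of the F statistic. The script was tested on simulated data. Alternatives were DESeq2 1.42.0, its size factors, other filters, splits as samples, only the groups compared, a replicate block, and leaving out each library.

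The 30 genes and the lists around them were chosen with earlier results of these data known, so they give no independent evidence of direction. Full statistics are given for up to 8 of the 30 genes per comparison, by smallest p, and up to 2 other pathway genes per list with a mean of at least 5 CPM. Some names on the lists matched no gene ID (146 of 153 matched). Further genes of the pathway are not reported here, and promoter and protein sequences were not analysed here. A count of 0 allows up to 3 counts, 0.107 CPM in the deepest and 0.276 CPM in the shallowest library; this limit is for counting error alone, because the labels name no molecular identifiers and reads may be copies of 1 molecule.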

Additional observations from a re-analysis of the deposited data

How the results depend on the processing

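Another scaling (DESeq2's size factors) moved the median of all genes by at most -0.02 and reversed no named gene and neither median of the SREBP and LXR groups. Among named genes, signs reversed in 4 cases: for 0.5 h against DMSO, Sqle was at 0.03 with the replicate block and Abcg1 at 0.05 without replicate 1 of rosiglitazone at 0.5 h (-0.73 without replicate 2); for 48 h against 24 h, Fdps was at 0.13 and Cyp51 at 0.22 without replicate 1 of 24 h (-1.77 and -1.58 without replicate 2). Depth limits Nr1h3 and Hsd17b7 most, with as few as 24 and 48 counts. The 4-group fit pools the wide spread of 24 h. Leaving a 24 h library out removes that spread and raised the calls in the 4 comparisons that use later libraries, except from 24 to 48 h without replicate 1 (0 calls), and adds no support. For 0.5 h against DMSO it gave 0 calls as before.

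Of the 30 genes, from 0.5 to 48 h, 0 were called with DESeq2's size factors, 4 by the DESeq2 test, 2 with a mean of at least 5 CPM, 1 with no filter (Abca1 in place of Scap), 6 with only the groups compared and 16 with splits as samples. From 0.5 to 24 h splits as samples gave 11 (18.7% of all genes in that fit higher and 20.2% lower), and from 24 to 48 h 8. The counts over all genes with splits as samples are in the next paragraph. The counts of the 30 genes show how far calls depend on the setting and are not a result about these genes. For the mean of 24 and 48 h, the DESeq2 test gave 4, a mean of at least 5 CPM 1, no filter 1, only the groups compared 1 and splits as samples 12. Leaving out 1 library at a time gave 0 to 4 genes from 0.5 to 24 h, 0 to 8 from 24 to 48 h, 0 to 7 from 0.5 to 48 h and 0 to 9 for the mean of 24 and 48 h.

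Of all genes, the DESeq2 test called 2 for 0.5 h against DMSO, 1212 from 0.5 to 24 h, 492 from 24 to 48 h, 2547 from 0.5 to 48 h and 2520 for the mean of 24 and 48 h, where the 4-group edgeR fit called 0, 15, 0, 1031 and 1135. With splits as samples these were 78, 5629, 2890, 6943 and 7147 of the 14481 genes in that fit. With no filter they were 1 for 0.5 h against DMSO, 334 from 0.5 to 24 h and 19 from 24 to 48 h. With only the groups compared they were 174 for 0.5 h against DMSO, 0 from 0.5 to 24 h and 2733 from 0.5 to 48 h. Leaving out 1 library at a time gave 0 to 1008 from 0.5 to 24 h, 0 to 509 from 24 to 48 h, 12 to 2706 from 0.5 to 48 h and 5 to 2777 for the mean of 24 and 48 h.

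Leaving out 1 library at a time reversed 4 medians: that of the SREBP group ranged from -0.68 to 0.76 (0.5 to 24 h), from -1.0 to 0.13 (24 to 48 h) and from -0.43 to 0.05 (mean of 24 and 48 h), and that of the LXR group from -0.13 to 0.19 (0.5 h against DMSO). The LXR median moved from -0.83 to -0.10 (0.5 to 24 h) and from -0.38 to -0.06 (24 to 48 h) with no change of sign. Apart from what is said of 24 h above, the cause of these shifts was not tested.

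With the replicate number as a block (the replicate block), 1 gene was called from 0.5 to 24 h, 407 from 0.5 to 48 h and 501 for the mean of 24 and 48 h, and 0 of the 30 genes from 0.5 to 48 h, where Scap had an adjusted p of 0.14 in edgeR. Same-numbered libraries did not deviate together (correlations of the replicate differences -0.08, 0.04 and -0.14). Whether they share a culture or isolation is not stated in the labels. With 2 libraries per group these correlations cannot settle it, and the block was used as an alternative only. The planned search for promoter motifs was not run, as no promoter sequence was used here.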
